A study of Mus musculus with 26 samples.

Results

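Gene expression in the lacrimal gland at 16 weeks of age was compared with that at 8 weeks in C57BL/6.NOD-Aec1Aec2 mice, a model of Sjögren's syndrome. The groups were the arrays whose titles give these ages, 5 at 16 weeks and 6 at 8 weeks, which are 11 of the 26 arrays in the series. The other arrays are 4 at 4 weeks, 6 at 12 weeks and 5 at 20 weeks. All mice were male and of the same strain, and none was treated. The strain is C57BL/6 with a pair of NOD-derived intervals, Aec1 (Idd3, chromosome 3) and Aec2 (Idd5, chromosome 1), so every group carries them. Per the study's description, 8 weeks is an early stage before clinical signs and 16 weeks the early clinical stage of autoimmunity. The comparison asks which genes differ between these stages. Arrays of a strain without disease were not analysed here, so 8 more weeks of age and progress of the disease cannot be told apart. The labels call each array a biological replicate without saying if it stands for 1 mouse, so the p-values cover the spread of the arrays, which may be technical.

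The lacrimal gland makes the watery layer of the tears. Its acinar cells build secretory proteins in the endoplasmic reticulum (ER), where chaperones and disulfide isomerases fold them, pass them through the Golgi for glycosylation and sulfation, and store them in granules that are released on nerve signals. In Sjögren's syndrome lymphocytes and plasma cells collect in tear and salivary glands, and secretion fails. In whole glands, fewer cells of a type and less RNA per cell cannot be told apart.

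Each gene is given by 1 probe set, the brightest of those that name that gene alone, on the log2 scale of the deposited values. A change is the mean at 16 weeks minus the mean at 8 weeks, and comes with the standard error (SE) of a limma fit over all 26 arrays and a p-value adjusted over 12377 genes. A gene is said to rise or fall where this adjusted p is under 0.05. A mean under 4.04, which lies within 1 log2 unit of the typical array median, is called near background, and changes that start or end there are lower bounds. Levels of different genes are not compared, because probe sets differ in how well they bind.

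An array of the 16 week group differed from the rest. Over all probe sets, 16 weeks replicate 4 had an SD of 1.68, against 1.95 to 2.27 on the 8 week arrays and 1.99 to 2.13 on the other 16 week arrays, and its median correlation with the arrays of its own age was 0.921 against 0.983 to 0.985. The mean of 16 lacrimal products on it was 10.48, against 11.69 to 12.15 on the other 16 week arrays and 11.07 to 13.43 at 8 weeks. With this array included, not all products had lower means at 16 weeks. Scgb1b2 and Car6 had means of 15.56 and 13.88 at 16 weeks, against 15.44 and 13.75 at 8 weeks. Among products low on replicate 4, Obp1a, an odorant-binding lipocalin, was at 6.51 on this array and at 15.76 to 16.18 on the other 16 week arrays. The lipocalin Lcn11 was at 6.58 against 14.02 to 14.59, and Aqp5, the water channel of acinar cells, at 4.90 against 10.59 to 11.12. On the other 10 arrays of both ages these markers were high, as the labelled tissue should have them. Results are therefore given with and without this array. The ages also differed in RNA measures. The difference between the 3' and the 5' probe sets of the actin control, which grows as RNA degrades, was 2.04 at the lowest, 2.65 at the median and 3.11 at the highest on the 8 week arrays. On 16 weeks replicates 1 to 5 it was 3.12, 3.36, 5.60, 5.71 and 4.99. The ages did not overlap (exact permutation test over 462 splits, two-sided, p = 0.00216, the smallest it can give), but replicate 1 of each age lay nearly level, at 3.112 and 3.116. The same difference for the Gapdh control was 1.15 ± 0.23 (SD, n = 6) and 2.03 ± 0.66 (SD, n = 5, exact permutation p = 0.00433).

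Far more genes fell than rose. Of 12377 genes, 374 changed (3.02%), 306 downwards (2.47%) and 68 upwards (0.549%), of 2461 at an unadjusted p under 0.05. The fallen genes were of many kinds, and the disulfide-forming enzyme Qsox1 and the Golgi sulfate carrier Slc35b2 were among their largest changes. The largest rises were those of Mug1, a protease inhibitor, Fam107a, an actin-binding protein, and Jchain, a part of antibodies. At least a 2-fold change was seen in 258 of the fallen and 32 of the risen genes. The 5 arrays of 16 weeks lay wholly below the 6 of 8 weeks for 205 of the 306 fallen genes and for 540 of all genes (4.36%). They lay wholly above for 48 of the 68 risen genes and for 342 of all genes (2.76%). These last shares of called genes follow from how the genes were called and are a description.

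Without 16 weeks replicate 4, 163 genes changed, 103 downwards (0.832%) and 60 upwards (0.485%), and 101 and 38 of these were among the 306 and 68. The share of risen genes among those called was 18.2% with all arrays and 36.8% without this array. It also depended on scaling and weights. With quantile normalization 414 of 773 genes rose (53.6%), with the array SD as a covariate 695 of 1156 (60.1%), and with array weights 1669 of 3327 (50.2%). The count rested on single arrays of either age. Leaving out replicate 1, 3, 4, 5 or 6 of 8 weeks gave 160, 218, 132, 194 or 582 genes. Leaving out replicate 1, 3 or 5 of 16 weeks gave 174, 109 or 213. Of the called genes, 68 fallen and 13 risen ones passed in every one of the 11 refits that left out 1 of these arrays. With the actin difference as a covariate 30 genes changed, 22 upwards and 8 downwards, and 20 of them were among the 374. All 374 kept their direction in that fit, while the median size of their change went from 1.34 to 1.10 and their median SE from 0.31 to 0.41. With the Gapdh difference in its place, 51 genes changed.

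**Figure D1:**
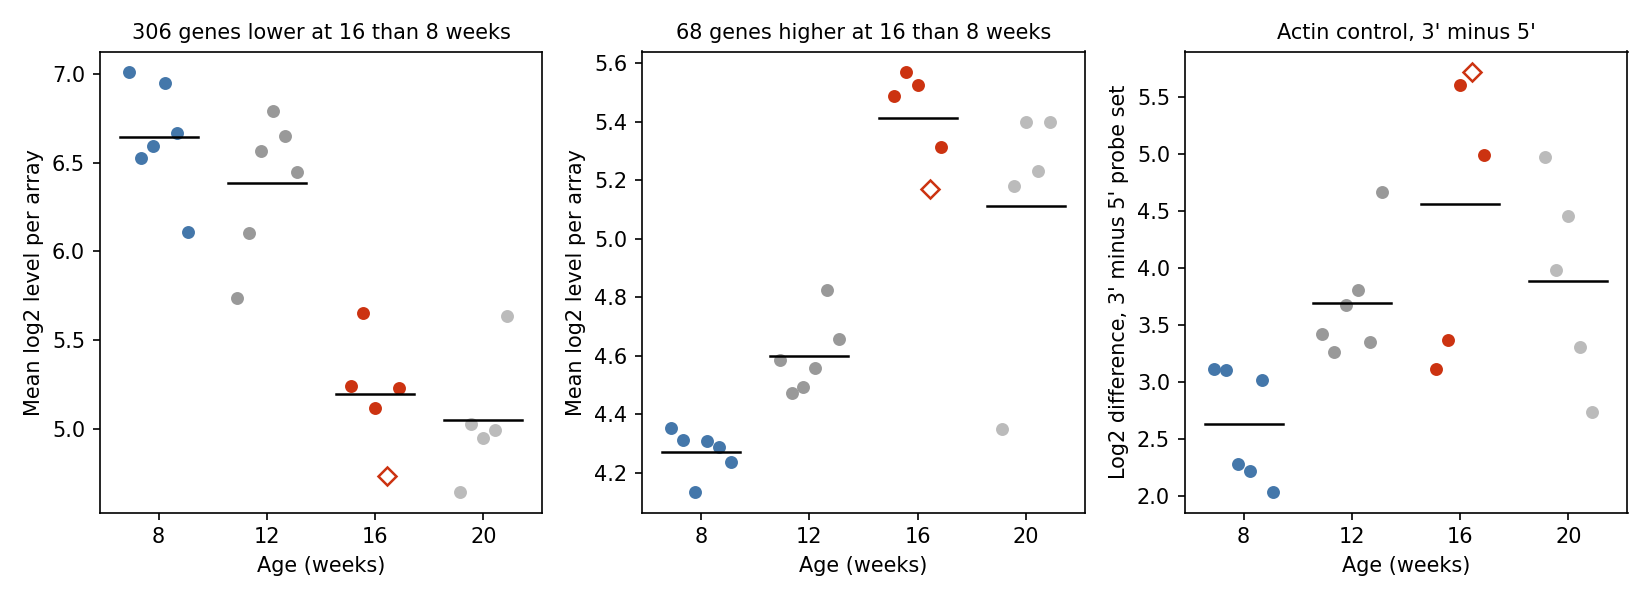
Mean log2 level per array of the 306 genes lower and the 68 genes higher at 16 than at 8 weeks, and the 3' minus 5' log2 difference of the actin control, by age in weeks. Each point is an array, bars are age means and the open diamond is 16 weeks replicate 4. The genes were chosen by the 8 and 16 week arrays. For the fallen genes 16 weeks replicate 4 is the lowest array of its age at 4.74, and the other 16 week arrays lie at 5.12 to 5.65, below all 8 week arrays at 6.11 to 7.01.

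Of 8 plasma cell and immunoglobulin genes tested 2 rose and none fell, where 0.549% of all genes rose, and 5 of the 8 had positive values. Jchain, the small protein that joins IgA and IgM into polymers, was at 4.42, 5.59 and 6.93 (lowest, median, highest) on the 8 week arrays. Its values on 16 weeks replicates 1 to 5 were 8.13, 9.15, 8.11, 7.68 and 8.31. All 5 lay above all 6, a rise of 2.71 ± 0.60 SE (6.52-fold, adjusted p = 0.019, 2.85 and 0.0372 without replicate 4). Jchain passed in all 11 refits, with 0.0494 at the highest. With the actin covariate it rose by 3.74 (adjusted p = 0.0331).

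Igkv8-30, a kappa light chain variable segment, was at 5.85, 6.71 and 7.65 at 8 weeks and at 9.44, 10.04, 9.11, 8.05 and 9.44 at 16 weeks, again without overlap. It rose by 2.46 ± 0.60 (adjusted p = 0.0298, 2.75 and 0.0372 without replicate 4). The call was kept in 5 of 11 refits and lost without replicates 1 and 5 of 8 weeks and 1, 2, 3 and 5 of 16 weeks (0.0723 at the highest). Its probe set is of a type that can bind related segments, so the signal is not that of 1 segment for certain. Igha, the heavy chain constant region of IgA, was at 10.99, 11.95, 11.29, 8.84 and 11.69 on 16 weeks replicates 1 to 5 and between 8.49 and 10.40 at 8 weeks. Replicate 4 alone lay within the 8 week range. The change was 1.54 ± 0.56 with all arrays (adjusted p = 0.128) and 2.07 without replicate 4 (0.0484). The mean of the 8 genes ran from 7.09 to 7.90 at 8 weeks and from 8.28 to 8.74 at 16 weeks, except for 6.35 on replicate 4. The list's median change was 0.16, or 0.44 without that array, against 0.0066 for all genes tested. Of its other members, Xbp1 and Derl3 act in every secretory cell, and changed by -0.90 and -0.47 with all arrays (adjusted p = 0.533 and 0.719).

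The largest rise was that of Mug1, murinoglobulin 1, a broad protease inhibitor of the alpha-2-macroglobulin family. Its level was 3.18, 3.41 and 3.92 (lowest, median, highest) at 8 weeks, near background, and 7.05, 7.86, 7.88, 7.58 and 7.29 at 16 weeks. The rise was at least 4.04 ± 0.64 (16.4-fold, adjusted p = 0.00253), was 4.02 without replicate 4, and passed in all 11 refits (0.0109 at the highest) and with the actin covariate (4.67, 0.0174). Fads2b, of the fatty acid desaturase family, went from 5.32, 6.01 and 6.16 to 7.54, 7.52, 8.22, 7.34 and 7.70. This rise of 1.85 ± 0.34 (adjusted p = 0.00788) passed in all 11 refits, and with the actin covariate it was 1.62 (0.142). Npat, an activator of histone genes named after its values were seen, had a small but tight rise, from 3.95, 4.16 and 4.48 to 5.24, 4.99, 5.04, 5.02 and 5.09 (0.88 ± 0.13, adjusted p = 0.00149). Npat too passed in all 11 refits, and its other probe set lay near background at both ages.

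**Figure D2:**
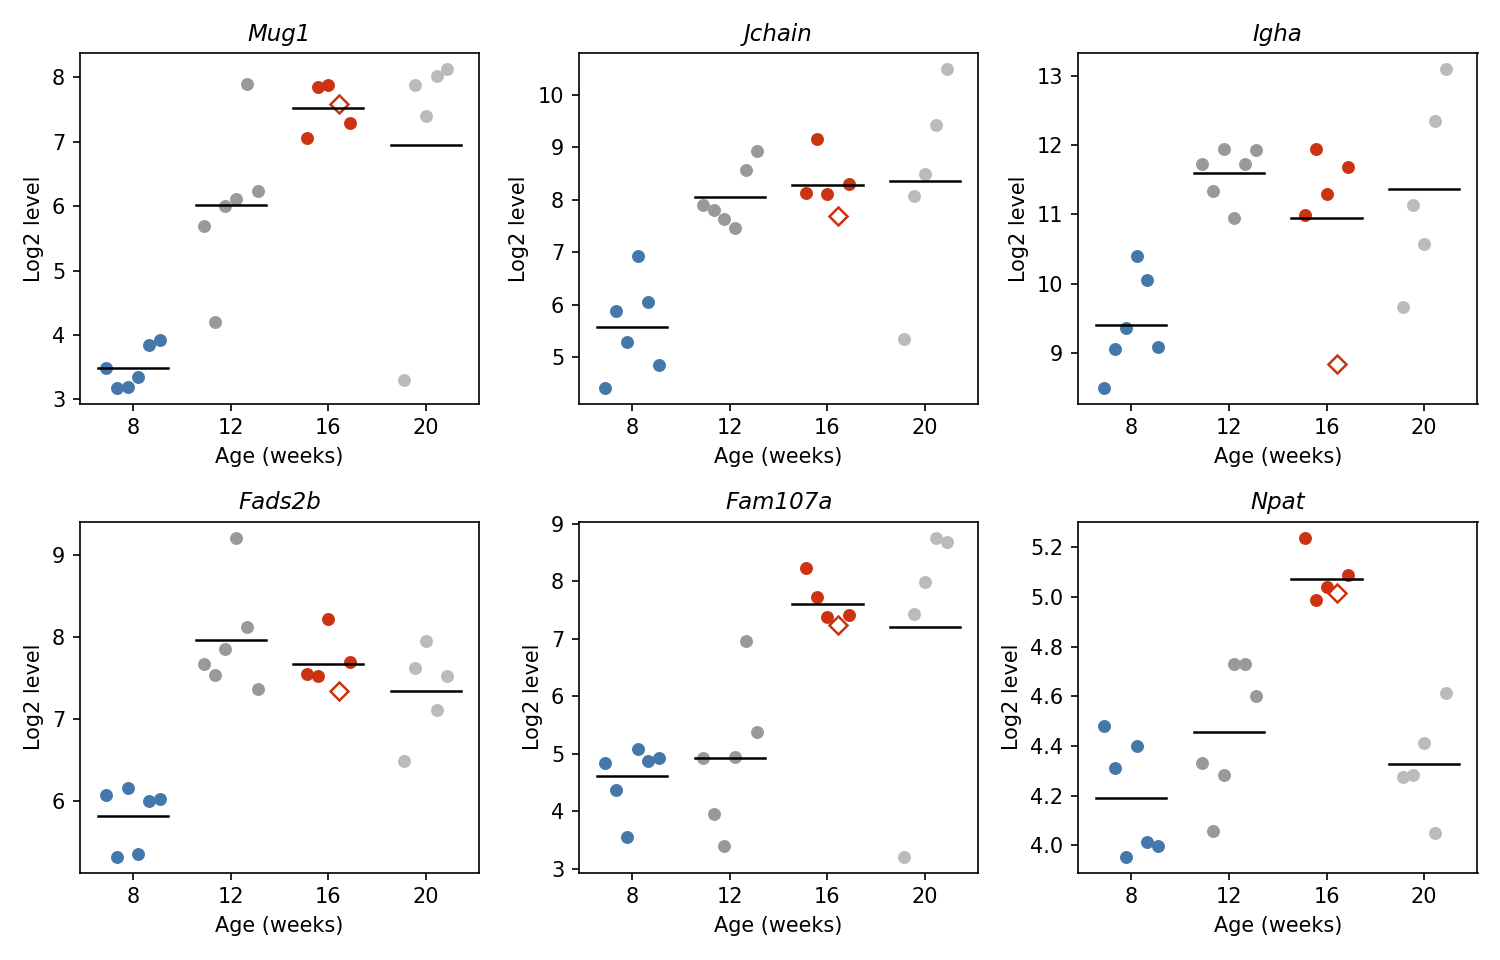
Log2 level of 6 genes on each array by age in weeks, with age means as bars and 16 weeks replicate 4 as an open diamond. For Mug1, Jchain, Fads2b, Fam107a and Npat every 16 week array lies above every 8 week array. Igha on 16 weeks replicate 4, at 8.84, lies among the 8 week arrays.

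Fam107a, an actin-binding protein induced by stress hormones, rose by 3.00 ± 0.71 (adjusted p = 0.0264, 3.09 and 0.0486 without replicate 4). It was at 3.55 to 5.08 at 8 weeks and at 8.23, 7.73, 7.38, 7.24 and 7.42 at 16 weeks. Its call was lost without replicate 3 of 8 weeks and 1 and 3 of 16 weeks (0.0639 at the highest). Odam, a secreted protein known from tooth and gum epithelium, went from 4.96 to 5.86 at 8 weeks to 7.85, 8.57, 8.77, 6.01 and 7.07, a rise of 2.38 ± 0.59 (adjusted p = 0.0308). Its call was kept in 4 of 11 refits (0.094 at the highest without 1 array) and lost without replicates 1, 3, 4 and 5 of 8 weeks and 1, 2 and 3 of 16 weeks. Gsdme, a gasdermin that forms membrane pores once caspases cut it, was near background at 8 weeks (3.28 to 4.31). At 16 weeks it was at 7.60, 7.01, 5.57, 4.27 and 5.65, so that replicate 4 overlapped the 8 week arrays. It rose by at least 2.24 ± 0.55 (adjusted p = 0.0308, 2.67 and 0.0189 without replicate 4), with the call kept in 5 of 11 refits and lost without replicates 3, 4 and 5 of 8 weeks and 1, 2 and 3 of 16 weeks (0.0889 at the highest). The other probe set of Gsdme was near background at both ages.

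Spred1, an inhibitor of Ras and MAP kinase signalling, rose by 1.70 ± 0.28 (adjusted p = 0.00412), from 4.02 to 4.64 at 8 weeks to 6.03, 5.89, 6.56, 6.27 and 5.36. It passed in all 11 refits. The 8 probe sets of Spred1 disagreed. Another of them, at 5.05 and 4.74, changed by -0.31, and the mean of all 8 changed by 0.20 (adjusted p = 0.114). Fam181b rose by 1.67 ± 0.29 (adjusted p = 0.00589, all 11 refits), but its other probe set, which is not of the type that can bind related transcripts, changed by -0.35. Cyp4v3, a fatty acid hydroxylase of the cytochrome P450 family, rose by at least 1.69 ± 0.40 from near background (adjusted p = 0.0257), and lost the call without replicates 1 and 4 of 8 weeks and 1 and 3 of 16 weeks (0.0645 at the highest). Nebl, the actin-binding nebulette, rose by 1.66 ± 0.40 (0.0284), and lost the call without replicates 3 and 4 of 8 weeks and 1 and 3 of 16 weeks (0.0739 at the highest).

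Calls that were kept in 2 of 11 refits only were those of Pabpc4l (at least 2.16 ± 0.59, adjusted p = 0.0468), Sema3d (at least 1.98 ± 0.51, 0.038), Paip1 (1.97 ± 0.51, 0.0376) and Dcaf6 (1.55 ± 0.42, 0.0468). Pabpc4l and Sema3d were near background at 8 weeks, at 3.76 and 3.32. Pabpc4l belongs to the poly(A)-binding proteins and Paip1 binds them, Sema3d is a secreted guidance factor, and Dcaf6 is a substrate receptor of a ubiquitin ligase. Pabpc4l and Sema3d kept the call without replicate 6 of 8 weeks and 4 of 16 weeks, Paip1 without replicate 6 of 8 weeks and 2 of 16 weeks, and Dcaf6 without replicate 1 of 8 weeks and 4 of 16 weeks. Their highest adjusted p without 1 array were 0.131, 0.0974, 0.0846 and 0.113. Without 16 weeks replicate 4 the change of Paip1 was 2.01 (0.0712). The mean of the 4 probe sets of Paip1 changed by 0.61, and that of the 2 of Pabpc4l by 0.88 (adjusted p = 0.134). Tnfsf10, the death ligand TRAIL, rose by at least 0.73 ± 0.16 from near background (adjusted p = 0.0192), without overlap of the ages, and lost the call without 16 weeks replicates 1 and 4 (0.0598 at the highest). Cenpa, the histone variant of centromeres, rose by at least 0.92 ± 0.24 (0.0367), lost the call in 7 of 11 refits, those without replicates 1, 4 and 5 of 8 weeks and 1, 3, 4 and 5 of 16 weeks (0.104 at the highest), and had another probe set at -0.25.

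The genes that fell include several of the secretory route. Qsox1, an enzyme that makes disulfide bonds in secreted proteins, had the largest fall. It was at 9.91, 10.42 and 10.86 (lowest, median, highest) at 8 weeks and at 8.18, 9.03, 6.03, 3.96 and 6.19 on 16 weeks replicates 1 to 5. No 16 week array reached the 8 week range, but the 5 arrays spread over 5 log2 units. The change was -3.70 ± 0.92 (13.0-fold lower, adjusted p = 0.0308), and -3.02 (0.0916) without replicate 4. It also lost its call without replicates 1, 4 and 5 of 8 weeks and 3 and 5 of 16 weeks. A second bright probe set of Qsox1 changed by -1.38, and with the actin covariate the change was -0.72 (0.793).

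Slc35b2, which carries the sulfate donor into the Golgi, was at 7.60, 8.90 and 10.15 at 8 weeks and at 5.61, 7.0, 4.29, 6.17 and 4.82 at 16 weeks. All 16 week arrays were lower, by a mean of -3.36 ± 0.66 (10.3-fold lower, adjusted p = 0.0129, -3.51 and 0.0202 without replicate 4). The fall passed in all 11 refits (0.0448 at the highest). Its other probe set changed by -0.46, and with the actin covariate the change was -2.19 (0.333). Pdia5, a protein disulfide isomerase of the ER, was at 6.58, 7.32 and 8.32 and then at 5.48, 5.38, 5.46, 2.87 and 5.79. Replicate 4 was the lowest by far, yet the fall of 2.43 ± 0.51 (adjusted p = 0.0173) was also seen without it (-1.90, 0.0419), and it passed in all 11 refits. Pdia6, of the same family, was at 8.20, 9.26 and 9.67 and then at 7.19, 7.89, 7.68, 6.28 and 7.97, a fall of 1.77 ± 0.39 (0.0173) that was lost only without 16 weeks replicate 4, at -1.49 (0.0521). Its second probe set was near background at both ages.

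Pdia6 was the only 1 of 25 genes of ER chaperones and the unfolded protein response to fall, where 2.47% of all genes fell. None of the 25 rose. Of these genes 20 had negative values, with a median of -0.95 against 0.0066 for all genes tested. Among the 8031 genes that passed a stricter filter, at each array's 75th percentile, the median was -0.175. That value is the nearer comparison for bright lists such as this one and several below. The list's median was -0.29 without 16 weeks replicate 4 and -0.19 with the actin covariate. The mean level of the list was 9.67 to 10.5 at 8 weeks, 9.54 to 9.91 on 16 weeks replicates 1, 2, 3 and 5, and 7.35 on replicate 4. Calr, the calcium-binding chaperone calreticulin, shows this pattern. It was at 13.04 to 13.56 at 8 weeks and at 12.87, 12.73, 12.61, 8.52 and 12.84 at 16 weeks (-1.45 ± 0.59, adjusted p = 0.176, and -0.60 without replicate 4). Edem1, which marks misfolded glycoproteins for disposal, changed by -1.50 ± 0.52 (0.106) and by -0.94 without that array.

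Promoters of this list often hold the ER stress element, the site through which ATF6 acts when unfolded proteins collect. They are shown for Pdia6, the member that fell, and for Pdia5 and Slc35b2, which fell too but are not on the list. The letters are a description with no test. Sequences are RefSeq's, build GRCm38.p6, matched by gene identifier. Of the 12377 genes tested 9894 had one, each of 250 bases before to 50 after a start, searched on both strands. The whole element, CCAAT and CCACG with 9 bases of any kind between them, stood in 7 of the 22 list members with a promoter (31.8%), in 15 of the 9894 (0.152%), in 1 of the 258 fallen genes with a promoter (0.388%) and in none of 56 such risen genes. That fallen gene is Pdia6. The core alone, CCACG, which lies within the whole element, is common, at 44.9% of the 9894, 50.4% of the fallen genes, 44.6% of the risen genes and 77.3% of the list. The 250 bases before the start are printed with the match in capitals, the whole element for Pdia6 (chr12:17266339-17266588, plus strand) and the core, read on the other strand, for Pdia5 (chr16:35490874-35491123, minus strand) and Slc35b2 (chr17:45563686-45563935, plus strand).
Pdia6: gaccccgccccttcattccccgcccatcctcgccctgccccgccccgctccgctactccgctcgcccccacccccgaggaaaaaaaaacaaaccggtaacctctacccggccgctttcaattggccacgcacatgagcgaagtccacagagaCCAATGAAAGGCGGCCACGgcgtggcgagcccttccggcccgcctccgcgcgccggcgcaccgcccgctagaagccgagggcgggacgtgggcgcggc
Pdia5: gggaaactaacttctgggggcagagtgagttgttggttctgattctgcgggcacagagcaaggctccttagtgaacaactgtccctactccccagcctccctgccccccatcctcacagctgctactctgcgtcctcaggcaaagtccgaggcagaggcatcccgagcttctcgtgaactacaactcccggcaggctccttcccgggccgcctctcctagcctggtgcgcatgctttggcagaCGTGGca
Slc35b2: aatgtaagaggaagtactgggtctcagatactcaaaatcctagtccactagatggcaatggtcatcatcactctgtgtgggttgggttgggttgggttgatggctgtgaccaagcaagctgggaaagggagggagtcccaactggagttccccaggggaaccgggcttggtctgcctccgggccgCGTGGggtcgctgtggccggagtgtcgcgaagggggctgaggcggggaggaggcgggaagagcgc

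Of 17 genes of regulated exocytosis, the release of granules, 1 fell and none rose, where 2.47% of all genes fell. An unadjusted p under 0.05 was found for 9 of the 17 and for 2461 of all 12377 genes. Of the 17, 11 were negative, with a median of -0.61 (-0.29 without replicate 4, -0.14 with the actin covariate). Rab27a, a small GTPase that docks secretory granules, was at 7.92 to 8.90 at 8 weeks and at 6.75, 7.36, 6.61, 5.92 and 6.61 at 16 weeks. The fall was 1.72 ± 0.45 (adjusted p = 0.0381), and -1.54 (0.101) without replicate 4. The call was kept in 3 of 11 refits, those without replicates 2 and 6 of 8 weeks and 2 of 16 weeks. Gpr108, a Golgi membrane protein, fell from 7.10, 7.44 and 7.96 to 5.23, 6.64, 4.50, 4.75 and 5.16 without overlap (-2.25 ± 0.44, adjusted p = 0.0129), in all 11 refits. Abo, the blood group glycosyltransferase, fell by 2.87 ± 0.76 (0.0414), and Pla2g12a, a secreted phospholipase A2, by 2.38 ± 0.60 (0.0337). The call of Abo was kept without 8 weeks replicate 6 or 16 weeks replicate 2 and lost without any other of the 11 arrays (0.118 at the highest, without 16 weeks replicate 4). That of Pla2g12a was kept without replicate 6 of 8 weeks and 2 and 5 of 16 weeks (0.0923 at the highest, without 16 weeks replicate 4). Galnt11, which starts O-linked glycosylation and is named after its values were seen, fell by at least 0.90 ± 0.12 to near background (adjusted p = 0.000555). It was at 4.55 to 4.96 and then at 3.87, 3.85, 3.73, 3.75 and 3.87, and passed in all 11 refits.

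Aminoacyl-tRNA synthetases load each tRNA with its amino acid. Of 17 genes 3 fell (1 without replicate 4) and none rose, where 2.47% of all genes fell, with 14 negative and a median of -0.50 (-0.33 without replicate 4, -0.32 with the actin covariate). Cars, for cysteine, was at 5.90, 6.76 and 7.64 at 8 weeks and at 4.36, 4.95, 3.85, 3.87 and 4.14 at 16 weeks. The ages lay about 1 log2 unit apart at their nearest, and the fall of 2.53 ± 0.35 (5.79-fold, adjusted p = 0.00111) passed in all 11 refits, with -2.44 (0.00365) without replicate 4. With the actin covariate it was -1.84 (0.0571), and the other probe set of Cars lay near background at both ages. Kars, for lysine, was at 7.23, 8.20 and 8.75 and then at 4.47, 6.30, 6.29, 3.09 and 6.36 (-2.78 ± 0.62, 0.0194). Its call was lost without replicate 4 of 8 weeks and 1 and 4 of 16 weeks (-2.22 and 0.0576 without the last). Tars, for threonine, was at 7.82, 8.23 and 9.14 and then at 7.09, 7.04, 6.95, 4.37 and 6.86 (-1.83 ± 0.51, 0.049). That call was kept only without 16 weeks replicate 2, and was lost without any other of the 11 arrays (-1.31 and 0.132 without 16 weeks replicate 4).

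Tars also carries in its promoter the core of the element bound by ATF4, the factor that switches on tRNA synthetases when amino acids run short. The letters TGATGNAA, searched on both strands, stood in 4 of the 10 synthetases with a promoter (40%), in 2.43% of the 9894 genes and in 1.94% of the fallen genes. The other 3 were Aars, Gars and Iars, whose changes were -0.32, -1.28 and -0.50 (adjusted p = 0.409, 0.176 and 0.61). The 250 bases before the start of Tars (chr15:11399659-11399908, minus strand) are shown as an example, with the element, read on the other strand, in capitals.
Tars: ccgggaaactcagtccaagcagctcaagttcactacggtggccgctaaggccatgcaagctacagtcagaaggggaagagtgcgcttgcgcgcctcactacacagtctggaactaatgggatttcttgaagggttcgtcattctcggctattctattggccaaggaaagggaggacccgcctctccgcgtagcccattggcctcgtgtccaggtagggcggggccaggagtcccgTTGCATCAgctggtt

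Other single genes, of protein making, splicing and other tasks, fell beside these. Eif5b, which joins the ribosomal subunits at the start codon, went from 8.69 to 9.69 at 8 weeks to 7.93, 7.92, 7.20, 4.04 and 7.35 (-2.35 ± 0.58, adjusted p = 0.0307), and was at -1.64 (0.0714) without replicate 4. It also lost its call without replicates 1, 3, 4 and 5 of 8 weeks and 3 of 16 weeks. Noc4l, of small ribosomal subunit assembly, fell by 2.32 ± 0.60 (0.0381), a call kept in 3 of 11 refits (without replicate 2 of 8 weeks and 2 and 5 of 16 weeks), and its 4 probe sets averaged -0.51 (0.084). Srsf5, a splicing factor, was at 7.14, 7.92 and 8.99 and then at 5.32, 6.55, 5.12, 5.17 and 5.59. It fell by 2.40 ± 0.53 (0.019), lost only without 16 weeks replicate 3 (0.0565). Among 24 splicing factors it was the only 1 to fall, where 2.47% of all genes fell. Of 26 cytosolic ribosomal protein genes none rose or fell by limma. An unadjusted p under 0.05 was found for 7 of the 26 and for 2461 of all 12377 genes. Of the 26, 21 were negative, with a median of -0.45 (-0.16 without replicate 4, 0.092 with the actin covariate). Cdc37, the co-chaperone that brings kinases to Hsp90, fell by 2.45 ± 0.54 (0.0188), lost without 16 weeks replicates 3 and 4 (0.0565 and 0.0514). Brd2, which reads acetylated histones, fell by 2.37 ± 0.57 (0.0277), kept in 4 of 11 refits and lost without replicates 1, 3, 4 and 5 of 8 weeks and 3, 4 and 5 of 16 weeks (0.0814 at the highest).

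**Figure D3:**
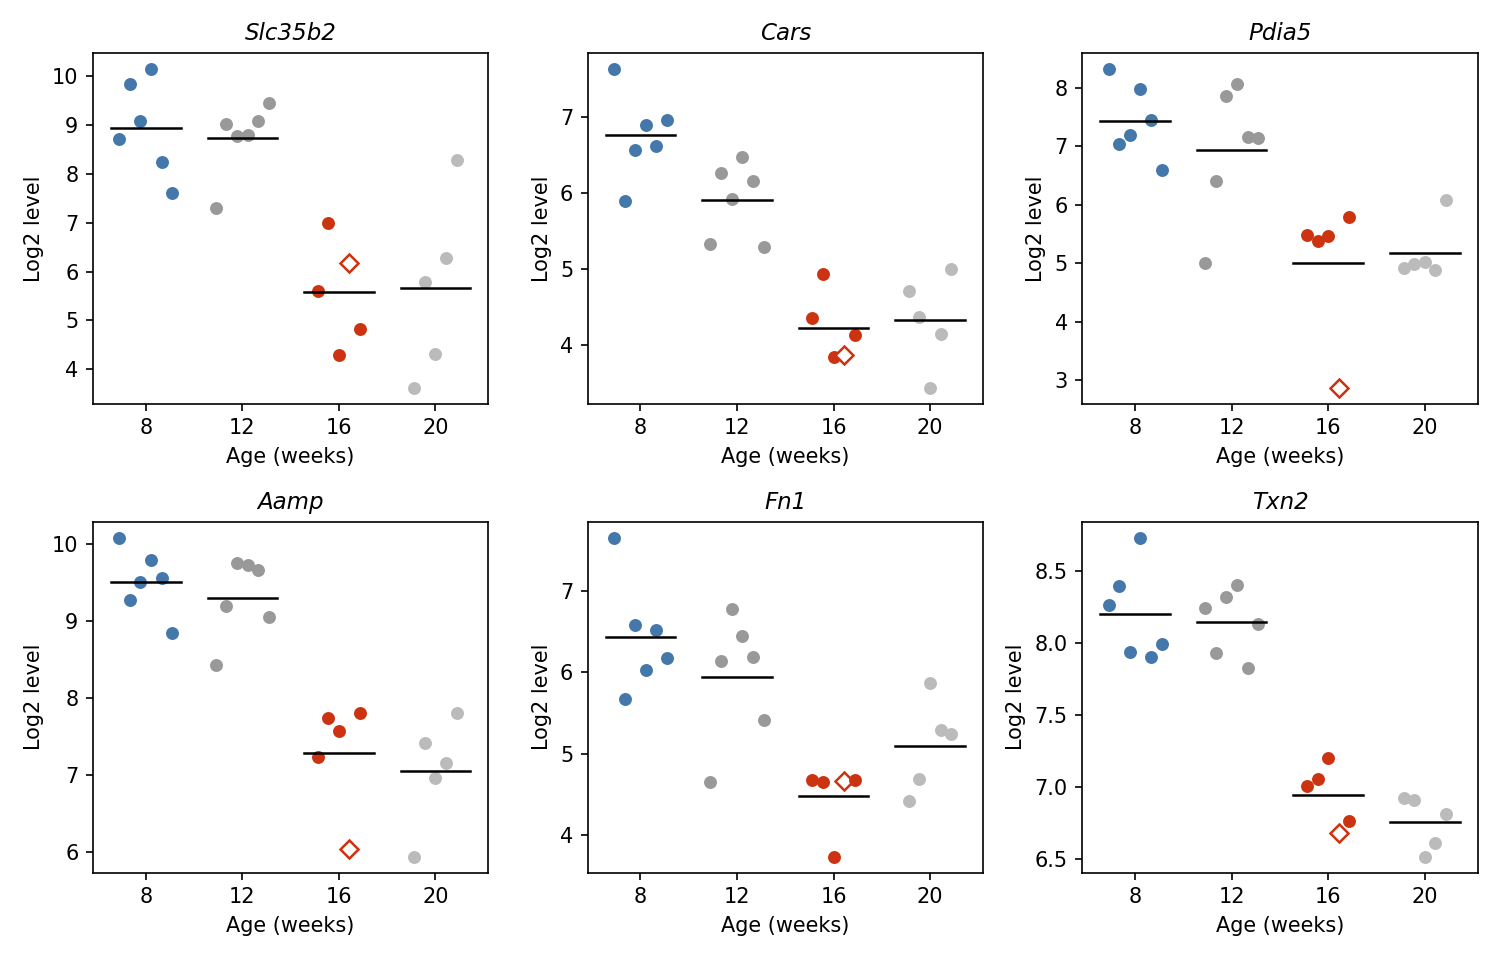
Log2 level of 6 genes on each array by age in weeks, with age means as bars and 16 weeks replicate 4 as an open diamond. For all 6 every 16 week array lies below every 8 week array. The 12 week means of Slc35b2, Aamp and Txn2 lie near those of 8 weeks, at 8.73, 9.30 and 8.14.

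Txn2, the thioredoxin of mitochondria, had the smallest adjusted p of all genes. It was at 7.91, 8.13 and 8.73 at 8 weeks and at 7.01, 7.05, 7.21, 6.68 and 6.77 at 16 weeks, a fall of 1.26 ± 0.14 (2.40-fold, adjusted p = 0.000106). The ages did not overlap, all 3 probe sets of Txn2 were lower, and the fall passed in all 11 refits and with the actin covariate (-1.28, 0.00962). With quantile normalization it was -0.79 (0.18). Of 23 genes of oxidative stress defence it was the only 1 to fall, where 2.47% of all genes fell, and none rose. Prdx3, the mitochondrial peroxidase that thioredoxin 2 reduces, was at 7.70, 8.65, 7.03, 3.90 and 7.76 at 16 weeks against 8.25 to 9.97 (-2.06 ± 0.62, 0.0686, and -1.28 without replicate 4). Sdhc, a membrane subunit of succinate dehydrogenase, fell by 1.94 ± 0.53 (0.0465), from 8.11, 9.25 and 9.64 to 7.83, 8.10, 6.15, 6.92 and 7.16, with both its probe sets lower. Its call was kept in 2 of 11 refits, those without replicate 6 of 8 weeks and 2 of 16 weeks (0.125 at the highest). It was the only 1 of 37 genes of oxidative phosphorylation to fall, where 2.47% of all genes fell. Of the 37, 32 were negative, with a median of -0.54 (-0.13 without replicate 4, -0.014 with the actin covariate). Me1, the malic enzyme that makes NADPH, fell by 1.32 ± 0.31 (0.0264), kept in 6 of 11 refits and lost without replicates 1, 4 and 5 of 8 weeks and 4 and 5 of 16 weeks (0.0752 at the highest).

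The proteasome degrades proteins tagged with ubiquitin, and 1 of its 26 genes tested fell and none rose, where 2.47% of all genes fell. Psmd4, a ubiquitin receptor of its cap, was at 7.76, 8.32 and 8.77 and then at 6.84, 7.50, 6.57, 6.64 and 7.14 (-1.41 ± 0.32, adjusted p = 0.0208). The call was lost without replicates 1 and 4 of 8 weeks and 3 and 4 of 16 weeks (0.0618 at the highest). Psmd2 of the same cap changed by -1.83 ± 0.52 (0.0581). Of the 26 genes 22 were negative, with a median of -0.94, or -0.49 without replicate 4 and -0.041 with the actin covariate.

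Of 24 genes of collagens and matrix, the fibres of connective tissue, 2 fell and none rose, where 2.47% of all genes fell, with 19 negative and a median of -0.36, which was -0.39 without replicate 4 and -0.43 with the actin covariate. Fn1, fibronectin, was at 5.67, 6.35 and 7.66 at 8 weeks and at 4.68, 4.66, 3.74, 4.67 and 4.68 at 16 weeks. The ages did not overlap and 4 of the 16 week arrays were nearly equal. The fall was 1.96 ± 0.35 (3.88-fold, adjusted p = 0.00672), and passed in all 11 refits, with -1.79 (0.113) under the actin covariate. Its other probe set was near background. Col1a2, a chain of type I collagen, was at 6.58, 7.33 and 7.92 and then at 6.22, 6.01, 5.05, 5.64 and 5.79 (-1.56 ± 0.34, 0.0186), with a call lost only without 16 weeks replicate 3 (0.06). A second probe set of Col1a2 changed by -1.53. Col1a1, the other chain, changed by -0.65 ± 0.20 (0.0771), and the matrix glycoprotein Sparc by -1.52 ± 0.48 (0.081).

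Of 13 genes listed for the NOD-derived intervals Idd3 and Idd5, which all groups carry, 1 fell, where 2.47% of all genes fell. None of the 13 rose. Aamp, a migration-associated protein listed for Idd5, was at 8.85, 9.53 and 10.08 at 8 weeks and at 7.23, 7.74, 7.58, 6.04 and 7.81 at 16 weeks. The ages did not overlap, and the fall of 2.23 ± 0.37 (4.68-fold, adjusted p = 0.00444) passed in all 11 refits, with -1.92 (0.0121) without replicate 4 and -1.51 (0.176) with the actin covariate. Il2 of Idd3 and Ctla4 and Slc11a1 of Idd5 were near background at both ages, with changes of 0.065, 0.083 and -0.036. Il21 and Icos did not pass the filter on low values.

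Further single genes of other lists fell. Zfp36, an immediate early gene whose protein speeds the decay of cytokine mRNAs, went from 4.47, 5.94 and 7.15 to 4.02, 4.93, 3.67, 3.49 and 3.65 (-1.94 ± 0.48, adjusted p = 0.0298). Its 16 week mean of 3.95 was near background, so the fall is a lower bound. The ages overlapped through replicate 2, and the call was kept in 4 of 11 refits and lost without replicates 1, 4 and 5 of 8 weeks and 1, 3, 4 and 5 of 16 weeks (0.0755 at the highest). Of 22 immediate early genes 1 fell, where 2.47% of all genes fell, and 17 were negative, with a median of -0.37. Cry2, a repressor of the circadian clock, fell by 1.09 ± 0.26 (0.0277), from 6.58, 7.62 and 8.26 to 6.57, 6.44, 6.39, 6.69 and 6.47. Its call was lost without replicates 1 and 4 of 8 weeks and 1, 3 and 5 of 16 weeks (0.0695 at the highest), and it was at -0.64 (0.234) with quantile normalization. Cry1 changed by 0.75 ± 0.25 (0.0924), and Dbp, a clock output that was at 6.58 at 12 weeks, by -0.53 ± 0.75 (0.701). Bok, of the Bcl-2 family, fell by 2.51 ± 0.60 (0.028) with overlap, as 8 weeks replicate 6 was at 3.74, and its call was lost without replicates 1 to 5 of 8 weeks and 3 and 4 of 16 weeks (0.0816 at the highest). Abhd17a, which removes palmitate from proteins, fell by 2.27 ± 0.63 (0.049), a call kept in 2 of 11 refits, without 8 weeks replicate 6 or 16 weeks replicate 2 (0.126 at the highest). Relb of the NF-kappaB family fell by at least 1.25 ± 0.33 (0.0389), kept in 2 of 11 refits, without 8 weeks replicates 2 or 4 (0.0963 at the highest). Tgfb1 fell by 1.24 ± 0.31 (0.0337), but both its means lay near background, and the call was kept in 3 of 11 refits, without replicates 2 and 6 of 8 weeks and 2 of 16 weeks (0.0814 at the highest).

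No gene of the T cell, B cell, macrophage, MHC or interferon lists rose or fell by limma, while the study places the entry of leukocytes at 12 weeks. An unadjusted p under 0.05 was found for 2461 of all 12377 genes. Among the lists it was found for 0 of 9 T cell, 0 of 8 B cell, 4 of 19 macrophage and 2 of 8 MHC class II genes. The counts were 0 of 10 for MHC class I, 4 of 21 for type I interferon and 4 of 14 for interferon gamma genes. All 9 T cell genes tested were near background at both ages, the defining marker Cd3e among them at 3.10 and 3.12, and 9 more measured T cell genes, with Cd3g and Cd3d, did not pass the filter. Of 8 B cell genes 6 were near background at both ages, and the defining Ms4a1 was at 4.01 and 4.45. The macrophage list had 13 of 19 genes negative and a median of -0.34 (-0.22 without replicate 4). With the actin covariate this median turned sign, to 0.077, and those of MHC class II and class I went from -0.26 and -0.27 to 0.26 and 0.18. C1qa, a chain of the complement starter C1q made by macrophages, was at 7.54 to 8.88 at 8 weeks and at 6.58, 7.73, 5.78, 6.61 and 7.05 at 16 weeks (-1.55 ± 0.63, adjusted p = 0.176). Cd74, the invariant chain of MHC class II, was at 10.03 to 11.52 and then at 10.24, 11.20, 8.91, 5.49 and 9.99 (-1.86 ± 0.79, 0.194). H2-Ab1, a class II chain, changed by -1.01 ± 0.48 (0.241), and both changes were smaller without replicate 4, at -0.94 and -0.52. Genes of the interferon gamma list, which also holds the receptor chains Ifngr1 and Ifngr2, were positive in 11 of 14 cases. Their median was 0.30 (0.31 without replicate 4, 0.72 with the actin covariate). The guanylate-binding proteins Gbp2 and Gbp3 changed by 1.33 ± 0.58 (0.209) and 0.86 ± 0.32 (0.138), and both were highest on 16 weeks replicate 2, at 9.80 and 6.96. Of the type I interferon genes 8 of 21 were positive. Usp18, one of them, changed by -1.58 ± 0.45 (0.0555).

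Secretory products and the machinery of fluid secretion had no gene that rose or fell by limma. An unadjusted p was under 0.05 for 0 of 16 products, 2 of 16 channels and transporters and 4 of 14 genes of nerve signals. Over all genes it was so for 2461 of 12377. Of 16 lacrimal products 11 were negative, with a median of -0.23 that was 0.026 without replicate 4 and 0.19 with the actin covariate. Outside replicate 4, Obp1a was at 15.69 to 15.92 at 8 weeks and at 15.90, 15.76, 15.97 and 16.18 at 16 weeks, and Lcn11 at 14.08 to 14.56 and at 14.02, 14.15, 14.50 and 14.59. The ages overlapped for both, and their changes were 0.16 and 0.054 without replicate 4. Lpo, the lactoperoxidase of tears, changed by -1.0 ± 0.53 (adjusted p = 0.297) and by -0.23 without it. Aqp5 changed by -1.28 ± 0.77 (0.346) and by -0.10 without it. The chaperone clusterin, Clu, changed by 0.37 ± 0.25 (0.404), and by -0.22 on its brightest probe set outside the types that can bind related transcripts. Among channels and transporters, the water channel Aqp8 was lower on all 16 week arrays, at 7.48, 7.95, 7.16, 6.15 and 6.54 against 7.98 to 9.13 (-1.55 ± 0.60, 0.153), and Slc12a2, which loads acinar cells with chloride, changed by 1.03 ± 0.60 (0.335). Itpr3, the receptor that releases calcium from the ER on nerve signals, was at 7.26, 7.59 and 8.58 and then at 6.46, 6.75, 7.02, 2.32 and 6.32, with no overlap (-1.92 ± 0.57, 0.0652, and -1.06, 0.0923 without replicate 4). P2rx7, an ATP receptor, changed by -0.86 ± 0.25 (0.0614). Chrm3, the muscarinic receptor that drives tear flow, did not pass the filter on low values. Cyp4a12a, a male-specific fatty acid hydroxylase of kidney, changed by -1.34 ± 0.45 (0.0977).

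Fat markers were higher on a pair of the 16 week arrays. The mean of 10 adipocyte genes was 4.32 to 4.81 at 8 weeks, 6.93 and 7.45 on 16 weeks replicates 1 and 2, and 4.53 to 4.69 on replicates 3, 4 and 5. Adiponectin, Adipoq, was at 7.57 and 8.32 on replicates 1 and 2 and at 2.14 to 2.33 on the others, against 2.11 to 2.29 at 8 weeks. Car3, a carbonic anhydrase of fat, was at 10.69 and 11.72 on the same arrays, and at 3.88 to 5.29 on the others. No adipocyte gene passed by limma (smallest adjusted p = 0.0854), and 4 of 10 had an unadjusted p under 0.05, as had 2461 of all 12377 genes. Of the 10, 9 were positive, with a median of 0.71. Pdk4 (1.91 ± 0.60, 0.0778) and Pck1 (1.44 ± 0.50, 0.112), enzymes of fuel use known from fat, were likewise highest on replicates 1 and 2. With the adipocyte mean as a covariate 30 genes rose and 243 fell. The mean of 7 salivary gland genes varied within both ages, from 4.82 to 10.98 at 8 weeks and from 5.54 to 8.90 at 16 weeks, and with it as a covariate 55 rose and 198 fell. Of 7 muscle genes tested 5 were near background at both ages, with Acta1 at 3.15 and 3.18 and Ckm at 3.57 and 3.61. The others were Ttn, at 5.70 and 4.96, and Mb, at 4.07 and 3.34. Heat shock chaperones had a median of 0.088 with all arrays and of 0.91 without replicate 4. None rose or fell by limma in either fit, and 2 of 17 had an unadjusted p under 0.05 (2461 of all 12377 genes). Of 25 cell cycle genes 1 rose, Cenpa, and none fell, where 0.549% of all genes rose and 2.47% fell. Of the 25, 17 were negative, and 12 were near background at both ages. Mki67, a marker of dividing cells, was at -1.62 ± 0.68 (0.189), with 8 weeks replicate 1 apart from the others at 9.10.

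**Figure D4:**
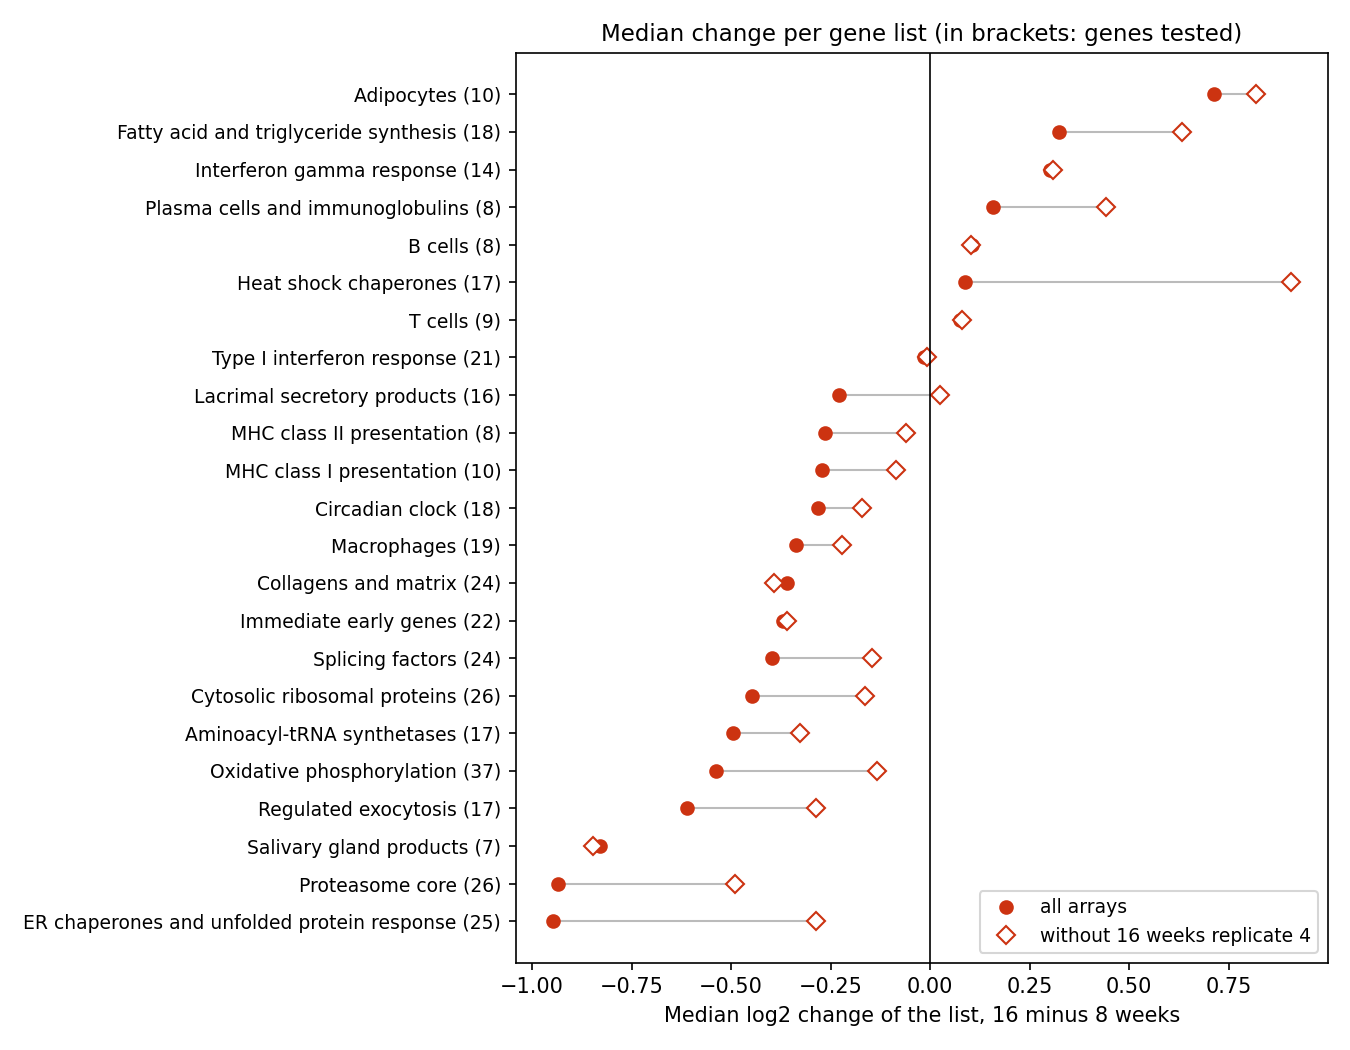
Median log2 change from 8 to 16 weeks of the tested genes of 23 lists, with all arrays (filled circles) and without 16 weeks replicate 4 (open diamonds), and the number of genes in brackets. Leaving out that array moves the ER chaperone median from -0.95 to -0.29 and the heat shock median from 0.088 to 0.91, while those of the collagen, immediate early and T cell lists move by little.

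With quantile normalization list medians lay nearer to 0 or above it, without a change of sign for those that follow. They were -0.57 for ER chaperones, -0.53 for the proteasome, -0.23 for exocytosis, -0.13 for oxidative phosphorylation, -0.10 for collagens and matrix, -0.059 for tRNA synthetases and -0.056 for splicing factors, against 0.39 for heat shock chaperones. That of oxidative stress defence did change sign, from -0.27 to 0.17.

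The 12 week arrays lie between the compared ages, and the levels of the called genes on them are a description. These genes were chosen by the 8 and 16 week arrays, which alone makes a 12 week mean in between likely. For the fallen genes the medians of the means at 8, 12, 16 and 20 weeks were 6.48, 6.23, 4.95 and 4.85. The 12 week mean lay between those of 8 and 16 weeks for 238 of the 306. It was past their midpoint for 46, which include 2 beyond the 16 week mean. For the risen genes the medians were 4.02, 4.30, 5.06 and 4.79, with 57 of 68 in between. Past the midpoint were 7, which include 1 beyond the 16 week mean. Jchain was already at 8.05 and Fads2b at 7.96 at 12 weeks, against 8.28 and 7.67 at 16 weeks, while Fam107a was at 4.92 and 7.60. Whether the step from 12 to 16 weeks differed from that from 8 to 12 was tested gene by gene, and none passed by limma (smallest adjusted p = 0.0799, 1259 at an unadjusted p under 0.05, and 17 passed with quantile normalization).

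The 12 and 20 week arrays enter no mean of the 16 against 8 week comparison, although they share the estimate of spread. Of the 306 fallen genes 303 were also lower at 20 than at 12 weeks, as were 54.4% of all genes, and 225 of them fell (73.5%), where 16.2% of all genes fell. Of the 68 risen genes 61 were also higher, as were 45.6% of all genes, and 17 rose (25%), where 8.72% of all genes rose. Without 20 weeks replicate 1, whose values spread least of all arrays, 188 fell and 20 rose, against 8.06% and 2.27% of all genes. The median change of the fallen genes was -1.32 from 12 to 20 weeks and -1.41 from 8 to 16 weeks. Txn2 fell by 1.39 ± 0.14 (adjusted p = 1.92e-05), Aamp by 2.25 ± 0.37 (0.00124), Srsf5 by 3.59 ± 0.53 (0.000661), Slc35b2 by 3.08 ± 0.66 (0.00533) and Cars by 1.57 ± 0.35 (0.00639). In contrast, Brd2 and Noc4l changed by -0.35 ± 0.57 (0.63) and -0.09 ± 0.60 (0.914), and Fn1 and Col1a2 by -0.84 ± 0.35 (0.0714) and -0.15 ± 0.34 (0.735). Of the risen genes Pabpc4l rose by 2.89 ± 0.59 (0.00375), Gsdme by 2.44 ± 0.55 (0.00681) and Fam181b by 1.32 ± 0.29 (0.00612). Jchain, Mug1 and Fads2b changed by 0.31 ± 0.60 (0.685), 0.93 ± 0.64 (0.25) and -0.62 ± 0.34 (0.146). A test of the difference between both comparisons called no gene by limma (741 at an unadjusted p under 0.05, smallest adjusted p = 0.158). The actin difference was 3.69 ± 0.52 (SD, n = 6) at 12 weeks and 3.89 ± 0.89 (SD, n = 5) at 20 weeks, and these ages overlapped in it. That of Gapdh was 1.80 ± 0.41 (SD, n = 6) at 12 weeks and 2.54 ± 0.40 (SD, n = 5) at 20 weeks. Its ranges, 1.384 to 2.365 and 2.051 to 3.078, overlapped in part. The Gapdh difference was thus higher at the later age here too, as it was at 16 weeks (2.03) against 8 weeks (1.15). Its part in the changes shared by both comparisons was not tested.

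**Figure D5:**
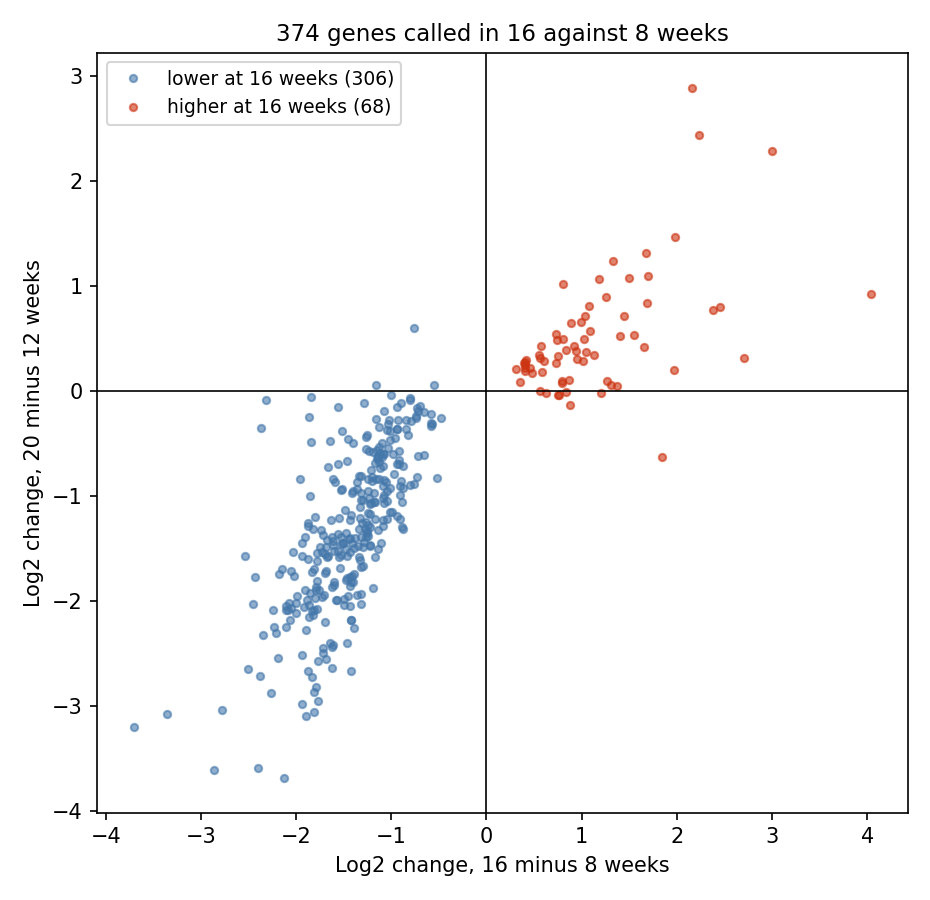
Log2 change from 12 to 20 weeks against that from 8 to 16 weeks for the 374 genes called in the latter, 306 lower (blue) and 68 higher (red). Of the blue points 303 lie below 0 on the vertical axis, and of the red points 61 lie above it.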

How the data were processed

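RNA of whole lacrimal glands was hybridised to 26 Affymetrix arrays, and the authors deposited log2 values for 45101 probe sets, with every column mapped to a sample. Per the submitters' processing notes RMA and GCRMA, methods that correct background and normalise arrays, were used, but no source used here says which of them made these log2 values. Array medians were 2.94 to 3.22. Precision is limited by how many arrays there are.

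In the platform annotation that gave the gene names, 34958 had 1 gene symbol, 932 several and 9211 were not listed. The 18194 genes with a probe set of their own were cut to 12377 that lay above the array median on at least 4 arrays. A limma 3.58.1 fit (R 4.3.3, lmFit and eBayes, a mean per age over all 26 arrays, two-sided) gave the contrasts, adjusted by Benjamini-Hochberg. The script was tested on simulated data. Named genes are the 15 highest and 15 lowest among those called, up to 4 members of each described list with the smallest p and every called member, and 12 chosen genes (Il2, Il21, Ctla4, Icos, Slc11a1, Chrm3, Aqp5, Clu, Igha, Jchain, Dbp, Cyp4a12a). Alternatives were another normalization, filter, probe set rule, weighting or covariate, and each array left out. The 46 gene lists and the comparison itself were chosen with earlier results of these data known. The comparison of 20 with 12 weeks, the Gapdh covariate and the motifs of ATF4 and of the whole ER stress element were added after the data were seen. Replicate numbers did not pair the samples (correlations of deviations -0.20 to -0.0062).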

Additional observations from a re-analysis of the deposited data

Results flagged for a closer look

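Of 182 groups of arrays, each the values of 1 gene or list at 1 age, 22 held an array far from the others of its age by Dixon's criterion, which chance meets in about 1 of 20 groups. On 16 weeks replicate 4 the lowest value stood apart for Pdia5 (2.87), Eif5b (4.04), Tars (4.37), Aqp5 (4.90), Lcn11 (6.58), Obp1a (6.51), Lpo (9.97), Itpr3 (2.32), Calr (8.52), Edem1 (6.83) and the mean of the plasma cell and immunoglobulin genes (6.35). The part of this array in the fallen genes is given by the fits without it. At 16 weeks the other arrays that stood apart were replicate 5 for Paip1 (7.39, highest), replicate 3 for Fn1 (3.74, lowest) and replicate 2 for Tgfb1 (2.48, highest, near background).

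On the 8 week arrays replicate 6 was lowest for Bok (3.74), Pdia6 (8.20) and Sdhc (8.11), and replicate 2 for Brd2 (7.85). Replicate 5 was highest for the interferon-induced Gbp2 (7.65) and Gbp3 (5.61), replicate 1 for Mki67 (9.10) and replicate 3 for Slc11a1 (3.43, near background). Causes of these values were not tested.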

How the results depend on the processing

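Called genes numbered 374 (68 higher, 306 lower), and the refits without 1 array gave 109 to 582 genes, 21 to 66 higher and 88 to 516 lower. More were called with only the 8 and 16 week arrays (673, of them 166 higher and 507 lower), without 16 weeks replicate 4 and 20 weeks replicate 1 (605, 260 higher), with quantile normalization (773, 414 higher), with probe sets averaged per gene (575, 107 higher, 468 lower), with array weights (3327, 1669 higher, 1658 lower) and with the array SD as a covariate (1156, 695 higher, 461 lower). Fewer were called without the filter (242, 45 higher, 197 lower), with the actin covariate (30, 22 higher, 8 lower), also without 16 weeks replicate 4 (45, 37 higher, 8 lower), and with the Gapdh covariate (51, 14 higher, 37 lower). In some settings 1 direction moved by over 1.5 times and the other by less. There were 42 higher and 260 lower genes with median centring, 32 and 258 with a 2-fold minimum, 30 and 243 with the adipocyte covariate, and 55 and 198 with the salivary covariate. With the replicate block, whose numbers do not pair the samples, 277 were called, 40 higher and 237 lower. The test of unequal steps called 17 genes with quantile normalization in place of 0. Among genes named, signs turned without probe sets that can bind related transcripts for Fam181b (-0.35), Cenpa (-0.25) and Clu (-0.22), with the array SD for Dbp (0.16) and Il2 (-0.019), with the actin covariate for Aqp5 (0.0051), Il2 (-0.030), Slc11a1 (0.0062), H2-Ab1 (0.044) and Obp1a (0.065), and with that covariate and without 16 weeks replicate 4 for Aqp5 (0.26), Il2 (-0.026), Slc11a1 (0.0086), Cd74 (0.042), H2-Ab1 (0.13), Lcn11 (0.31), Obp1a (0.48) and Lpo (0.12). Refits without 1 array ranged from -1.95 to 0.054 for Lcn11, from -2.26 to 0.16 for Obp1a and from -0.063 to 0.038 for Slc11a1, and leaving out both arrays that stood apart gave 0.054 and 0.16 for the lipocalins. Of these 12 genes, Fam181b and Cenpa had a call. In all, named genes kept direction and side of the threshold in 1772 values from alternatives, lost the call in 397, gained one in 69 and turned sign in 23. Of list medians, 5 moved by more than the spread of their arrays and 731 did not. This count takes no account of sign. With the actin covariate, medians that turned sign include those of lacrimal products (-0.23 to 0.19), ribosomal proteins (-0.45 to 0.092) and fatty acid oxidation (-0.22 to 0.14). The causes were not tested.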
